A study of Mus musculus with 8 samples.

Results

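The genes of the semaphorin, ephrin, Slit and netrin guidance systems were read out in RNA-seq of endothelial cells sorted from lung tumors. They are every gene symbol of the semaphorin classes 3 to 7 (Sema), the plexins (Plxn), the neuropilins (Nrp), the Eph receptors of the A and B classes (Epha, Ephb), the ephrins (Efna, Efnb), Slit, Robo, Unc5 and the netrins (Ntn). This gave 67 genes of the 33641 symbols listed: 20 semaphorins, 9 plexins, 2 neuropilins, 9 EphA and 5 EphB receptors, 5 ephrin-As, 3 ephrin-Bs, 3 Slits, 4 Robos, 4 Unc5 receptors and 3 netrins. The tumors were grown from Lewis lung carcinoma (LLC) cells, a mouse lung cancer line, placed in the left lung. Both groups carried LLC tumors, were of either sex and 6 to 8 weeks old when the tumor cells were placed, and gave CD45-CD31+ cells from microdissected tumors at day 21. The 4 control mice are labelled only as control. The study's text calls its controls C57Bl/6 wild type in one place and littermates with either the floxed Foxf1 allele or the Cre alone in another. The 4 endFoxf1+/- mice were Pdgfb-iCreER/Foxf1 fl/+, in which a tamoxifen-activated Cre driven by the endothelial Pdgfb promoter removes 1 allele of Foxf1, a forkhead transcription factor of lung endothelium. It also describes control mice given tamoxifen. Whether the controls sequenced here carried the Cre is not given in the labels. Control libraries are written C1 to C4 and endFoxf1+/- libraries H1 to H4.

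Guidance genes were named for steering growing axons, and the same ligands and receptors shape vessels. Secreted class 3 semaphorins bind neuropilins, which pair with plexins to signal, and class 4 to 7 semaphorins mostly bind plexins directly. Plexins change cell adhesion and the actin cytoskeleton. Neuropilins also bind VEGF family members: Nrp1 works with the VEGF receptor Kdr in blood vessels, and Nrp2 is best known from veins and lymphatic vessels, where it takes part in VEGF-C signaling. Ephrins are membrane-bound ligands of Eph receptor tyrosine kinases, and signals run into both touching cells. Ephrin-B2 (Efnb2) marks arteries and its receptor Ephb4 marks veins. Slits are secreted ligands of Robo receptors, of which Robo4 is largely restricted to endothelium. Netrins act on Unc5 and Dcc family receptors, and Unc5b is the Unc5 receptor of endothelial tip cells and arteries.

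Promoter sequence was available from RefSeq on GRCm38.p6 for 58 of the 67 genes, as 74 windows that run from 250 bases before to 50 bases after a start. Stretches before the start are shown for 4 receptors, the neuropilin pair, Epha2 and Unc5b. Nrp2 and Epha2 are the members whose groups do not overlap over all 8 libraries. They are 2 of 51 tested (3.92%), a share below the 5.04% of all tested genes. Epha2 and Unc5b have the smallest control SD relative to the mean among the 50 members with a control mean of at least 1 TPM. Nrp2 is cut short by 32 bases that GENCODE annotates as exon. They are written 5′ to 3′ on the gene's strand, with each CpG in capitals.
Nrp1, chr8:128358823-128359072, plus strand: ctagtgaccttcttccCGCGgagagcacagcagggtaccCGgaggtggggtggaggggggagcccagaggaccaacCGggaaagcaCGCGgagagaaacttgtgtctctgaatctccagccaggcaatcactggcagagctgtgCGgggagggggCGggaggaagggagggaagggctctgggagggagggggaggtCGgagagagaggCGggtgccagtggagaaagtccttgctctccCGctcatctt
Nrp2, chr1:62703067-62703284, plus strand: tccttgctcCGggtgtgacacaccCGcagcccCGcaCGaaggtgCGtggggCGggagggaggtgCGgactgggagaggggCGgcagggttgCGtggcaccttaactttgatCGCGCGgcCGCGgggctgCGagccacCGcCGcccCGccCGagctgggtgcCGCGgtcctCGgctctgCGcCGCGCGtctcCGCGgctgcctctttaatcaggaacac
Epha2, chr4:141300971-141301220, plus strand: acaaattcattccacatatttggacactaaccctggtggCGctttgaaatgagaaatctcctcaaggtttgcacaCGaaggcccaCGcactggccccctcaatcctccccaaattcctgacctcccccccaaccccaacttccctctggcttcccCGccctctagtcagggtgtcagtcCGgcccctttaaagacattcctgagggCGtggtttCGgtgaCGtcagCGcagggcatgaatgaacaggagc
Unc5b, chr10:60831582-60831831, minus strand: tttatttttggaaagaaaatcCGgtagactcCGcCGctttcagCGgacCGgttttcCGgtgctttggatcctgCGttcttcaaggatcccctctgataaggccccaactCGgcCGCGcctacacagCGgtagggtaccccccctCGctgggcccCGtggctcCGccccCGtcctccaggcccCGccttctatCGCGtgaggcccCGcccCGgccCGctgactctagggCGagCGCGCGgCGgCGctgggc
In GENCODE vM21 on GRCm38, the gene Nrp1 spans chr8:128358604-128503363, Nrp2 chr1:62703285-62818695, Epha2 chr4:141301240-141329384 and Unc5b chr10:60762593-60831581, so that the Nrp1 stretch lies inside the annotated gene, between exons, and the others before it. The Nrp2 stretch held 28 CpGs in 218 bases (12.8 per 100 bases) at 72.5% GC, and the Unc5b stretch 27 in 250 (10.8) at 66.8% GC. Nrp1 held 11 (4.4 per 100 bases) at 64.4% GC and Epha2 9 (3.6) at 55.6% GC. All 4 lay above the typical window, since the median over all 32851 windows was 6 CpGs in 250 bases at 52.4% GC. A forkhead core, TAAACA or its reverse complement TGTTTA, stood in 2 of the 74 windows of guidance genes (2.7%, Sema4d and Epha6), against 13.4% of all windows of the same length. An ETS core, CGGAAG or CTTCCG, stood in 6 of the 74 (8.11%: Efna1, Epha3, Epha6, Ephb6, Plxnb1 and Sema4a), against 16.9% of all. These are matches of letters in a short window. They do not bear on whether a factor binds there.

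The deposited values are TPM, an abundance unit in which reads are scaled for transcript length and each library adds to 1000000, so that genes can be compared within a library but read depth is unknown. Foxf1 was listed at 213, 285, 296 and 331 TPM in C1 to C4 and at 177, 203, 14.04 and 105 TPM in H1 to H4, so that all 4 endFoxf1+/- libraries lay below the controls. H3 stood apart from the other libraries, and its markers go against the label of sorted CD45-CD31+ cells. Whether it holds the sample its label names was not tested. In it the 20 endothelial markers were at 5.77% of their control geometric mean, while the 10 myeloid markers were at 1146% and the 8 lymphocyte markers at 335%. The 12 fibroblast and pericyte markers, at 173%, were split: 4 were highest in H3 (Pdgfra, Col3a1, Dcn and Lum) and 4 lowest there (Col1a2, Rgs5, Tagln and Postn). All 20 endothelial markers were lowest in H3, summing to 939 TPM against 16084 to 20575 in the controls, and all 10 myeloid markers were highest there, summing to 9567 TPM against 1492 to 5197. Arterial markers stood at 8.88% in H3, venous at 18.7%, lymphatic endothelial at 27.3%, epithelial at 45.1% and erythroid and platelet markers at 23.6%. Ptprc, which encodes CD45, was at 91.2 TPM in H3 against 2.94 to 9.13 in the controls, although the sort was for CD45- cells. In H4 the endothelial markers were at 58.7%, the lymphatic endothelial markers at 153.5%, the fibroblast and pericyte markers at 148%, the myeloid markers at 143% and the epithelial markers at 202%, where C3 among the controls was at 224%. Of the fibroblast and pericyte markers, Pdgfra, Col1a1, Col1a2, Col3a1, Dcn and Lum lay above every control in H4, and Pdgfrb, Rgs5, Cspg4, Tagln and Postn below every control, so that this list was split in H4 as well. The lymphatic markers in H4 summed to 618 TPM, inside the control range of 446 to 702 TPM, with Lyve1, Flt4 and Ccl21a inside their own control ranges and Prox1, Mmrn1 and Pdpn above theirs. Correlated across genes with each other library, H3 had a median r of 0.795 and H4 of 0.892, where the remaining 6 had 0.958 to 0.968. Each comparison is therefore given with all 8 libraries, without H3, and without H3 and H4. In these sorted bulk samples, fewer endothelial cells and less of a transcript per endothelial cell cannot be told apart.

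In control tumor endothelial cells, 9 guidance genes had a mean of 100 TPM or more, 17 lay between 10 and 100, 24 between 1 and 10, and 17 below 1. The 9 highest were Nrp1, Sema3c, Sema3f, Sema6a, Robo4, Plxna1, Sema7a, Efnb2 and Sema6d. The members together made up 2465 to 2910 TPM in the controls. They made up 3054, 3049 and 1936 TPM in H1, H2 and H4, and 599 in H3. Counted by library, 46 to 52 members reached 1 TPM, other than in H3, where 41 did.

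**Figure D1:**
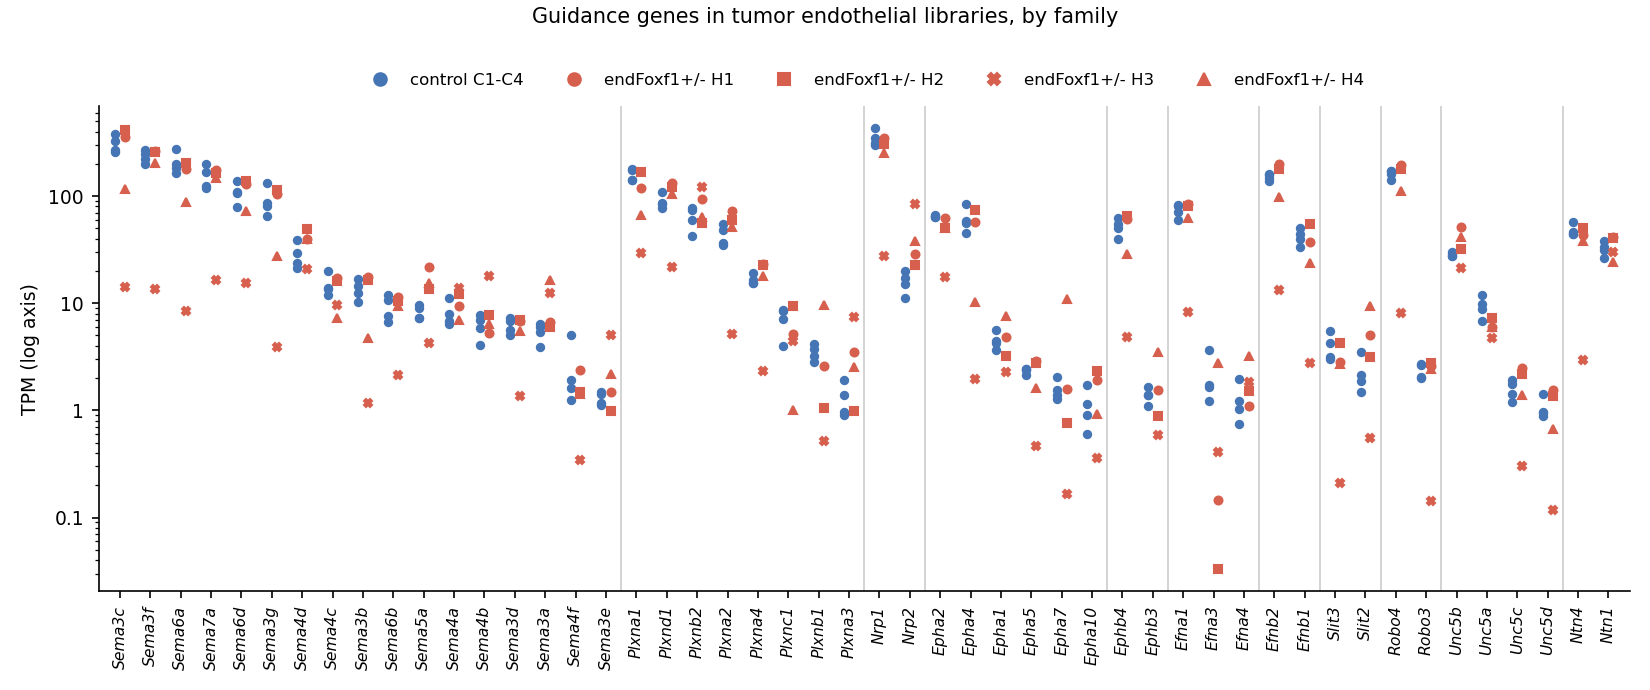
TPM (log axis) of the 50 guidance genes with a control mean of at least 1 TPM, grouped by family and ordered by control mean, with control libraries in blue and each endFoxf1+/- library by its own symbol. For most high genes H3 (cross) lies far below the other libraries, and for Nrp2, Plxna3, Sema3e and Sema4b it lies above them.

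Among the semaphorins, the secreted Sema3c, a neuropilin and plexin ligand, was the highest. Its control values were 376, 327, 255 and 271 TPM, and the endFoxf1+/- values were 359, 417, 14.2 and 117 TPM. H1 and H2 lay within or above the control range and H3 and H4 below it. Sema3f, a ligand preferring Nrp2, stood at 249.1, 223, 201 and 270.1 TPM in the controls and 263, 258, 13.6 and 205 TPM in H1 to H4. Apart from H3, all of its endFoxf1+/- values fell inside the control range. The arterial Sema3g had 133, 80.5, 65.7 and 86.1 TPM in the controls and 105, 115, 3.87 and 27.9 TPM in the endFoxf1+/- libraries, again low in H3 and H4. The membrane semaphorin Sema6a, a ligand of plexin-A2 and plexin-A4, had 164, 198, 183 and 276 TPM against 181, 203, 8.44 and 87.5 TPM. Sema7a, which is anchored to the membrane by a lipid and binds Plxnc1, had 168, 120.0, 124 and 198 TPM against 175, 166, 16.5 and 146 TPM. These 5 genes thus shared their order in the endFoxf1+/- group, with H3 lowest and H4 next lowest in every one. Sema3e, the ligand of Plxnd1, was far lower and was highest in H3, with 1.17, 1.122, 1.48 and 1.43 TPM in the controls and 1.496, 0.995, 5.08 and 2.19 TPM in H1 to H4.

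Of the receptors for semaphorins, Nrp1 was the highest of all 67 genes at 348 ± 57.04 TPM (SD, n = 4) in the controls, and Nrp2 stood at 15.8 ± 3.73 (SD, n = 4). Plxna1, a partner of the neuropilins, had 139.9, 141, 175 and 180.0 TPM in the controls and 118, 168, 29.5 and 66.7 TPM in the endFoxf1+/- libraries. Plxnd1, the endothelial plexin, had 76.97, 108, 83.8 and 86.1 TPM against 131, 122, 21.6 and 105 TPM, so that H1 and H2 lay above all controls and H4 within their range. Plxna2 gave 55.4, 34.96, 36.5 and 47.7 TPM against 72.99, 59.2, 5.201 and 51.6 TPM, with H1 and H2 above all controls as well. Plxna3 was low everywhere, at 1.398, 0.907, 1.92 and 0.956 TPM against 3.54, 0.991, 7.45 and 2.56 TPM, and it was highest in H3.

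The EphA receptor Epha2, which takes part in tumor vessel growth, had the tightest control values of the genes shown, 65.01, 63.9, 63.7 and 66 TPM. Its values of 62.3, 50.8, 17.5 and 50.7 TPM in H1 to H4 all lay below these. Its ligand ephrin-A1 (Efna1) had 83.3, 70.9, 59.6 and 81.2 TPM against 85.1, 80.3, 8.24 and 61.9 TPM, with the groups overlapping. Epha4 had 45.5, 84.6, 58.5 and 55.8 TPM against 57.2, 73.6, 1.95 and 10.4 TPM, and was the member at the lowest share of its control mean in H3 (3.19%). Efna5 averaged 0.9997 ± 0.611 TPM (SD, n = 4) in the controls, and its values of 0.745, 0.961, 5.11 and 5.81 TPM in H1 to H4 were high in H3 and H4 only.

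Efnb2, the arterial ephrin, had 158, 148, 137 and 160.3 TPM in the controls and 198, 178, 13.1 and 98.7 TPM in the endFoxf1+/- libraries. Ephb4, its venous receptor, had 63.04, 54.9, 40.2 and 50.5 TPM and 61.3, 65.7, 4.83 and 29.1 TPM. Both were lowest in H3 and next lowest in H4. The pair moved together: the log2 ratio of Efnb2 to Ephb4, each as log2(TPM + 1), was 1.31, 1.41, 1.75 and 1.65 in C1 to C4 and 1.67, 1.43, 1.28 and 1.73 in H1 to H4. The means were 1.53 ± 0.20 (SD, n = 4) and 1.53 ± 0.21 (SD, n = 4), and the difference of -0.0021 was smaller than the spread between libraries (exact two-sided permutation test, p = 0.971). With 4 libraries a group this does not show that the ratio was equal.

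In the Slit and Robo system, the endothelial receptor Robo4 had 169.6, 172, 139.7 and 160.0 TPM in the controls and 195, 179.6, 8.06 and 113 TPM in H1 to H4. Robo1, the more general receptor, averaged only 0.108 ± 0.0436 TPM (SD, n = 4) in the controls. The ligand Slit2 had 2.14, 3.49, 1.87 and 1.49 TPM against 5.103, 3.14, 0.551 and 9.37 TPM, highest in H4, while Slit3 had 2.996, 3.13, 4.29 and 5.48 TPM against 2.85, 4.29, 0.208 and 2.68 TPM. Robo4 thus stood far above Slit2 and Slit3 in each library. Robo4 and Robo3 are neighbors, 554 bases apart on chromosome 9, and Robo3 averaged 2.36 ± 0.401 TPM (SD, n = 4).

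Among netrins and their receptors, the basement membrane netrin Ntn4 had 46.03, 44.1, 43.9 and 56.7 TPM against 43.6, 50.7, 2.95 and 37.8 TPM. Ntn1, the classical guidance netrin, had 33.6, 38.1, 26.1 and 31.3 TPM against 41.8, 40.7, 30.3 and 24.3 TPM, and H3 lay inside the control range. Unc5b, the endothelial netrin receptor, had 28.8, 27.3, 29.8 and 27.9 TPM in the controls and 51.5, 32.2, 21.2 and 41.6 TPM in the endFoxf1+/- libraries. H1, H2 and H4 were above every control value and H3 was below them. Dcc, the other classical netrin receptor, was listed at 0 in all 8 libraries.

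For the comparison of groups, genes with at least 1 TPM in at least 4 of the 8 libraries were tested with limma on log2(TPM + 1), and p-values were adjusted (Benjamini-Hochberg) over all 14964 genes tested. Fold changes are on that log2(TPM + 1) scale, which understates the change of low genes. Of the 67 guidance genes 51 passed the filter: 17 semaphorins, 8 plexins, 2 neuropilins, 6 EphA and 3 EphB receptors, 4 ephrin-As, 2 ephrin-Bs, 2 Slits, 2 Robos, 3 Unc5 receptors and 2 netrins. The 16 others were at or above 1 TPM in at most 3 libraries. Robo1 was among them, and so was Epha8, which was listed at 0 in 7 of 8 libraries.

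With all 8 libraries, no guidance gene passed an adjusted p of 0.05 in limma, and neither did any other gene (0.0% of those tested, smallest adjusted p 0.305 for all genes and 0.79 for guidance genes). At an unadjusted p under 0.05, limma called 1 of the 51 guidance genes (1.96%), Nrp2, where 5.59% of all tested genes were called, 2.82% higher and 2.77% lower. The groups did not overlap for 2 of 51 (3.92%), Nrp2 above and Epha2 below, where 5.04% of all tested genes did not (2.73% above and 2.31% below). Both shares are below the background and are no result about the guidance genes. The median log2 fold change of the 51 was -0.34, against -0.17 for all tested genes, and 18 of the 51 (35.3%) had a fold change above 0, against 32.0% of all.

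Nrp2 had 19.9, 17.3, 11.1 and 15.1 TPM in the controls and 28.8, 22.6, 84.7 and 38.4 TPM in the endFoxf1+/- libraries, so that each of H1 to H4 lay above each control. Its log2 fold change was 1.25 with a standard error of 0.39 (limma, unadjusted p = 0.0107, adjusted p = 0.79), and an exact two-sided permutation test gave p = 0.0286, the smallest that 4 against 4 allows, and 0.567 when adjusted over all tested genes. Nrp2 reached its highest value in H3, where all 10 myeloid and 7 of 8 lymphocyte markers were also highest and the fibroblast and pericyte markers were split, and its next highest in H4, where 3 of the 6 lymphatic markers lay above the controls and 3 within them. Of the 12 fibroblast and pericyte markers, 3 (Dcn, Lum and Col3a1) shared this pattern, above every control in each of H1 to H4, highest in H3 and next highest in H4. Rgs5, a pericyte marker, and Postn were below every control in each of H1 to H4. Outside that list, Pdpn of the lymphatic and Cd3g of the lymphocyte markers shared the pattern. The myeloid marker Cd68 was above every control in each of H1 to H4, with H2 next highest after H3. No other marker of the remaining lists was above every control in each of H1 to H4. Dcn, a matrix proteoglycan of fibroblasts, had 22.7, 7.64, 11.4 and 20.4 TPM in the controls and 47.2, 36.6, 533 and 82.6 TPM in H1 to H4. Lum had 7.096, 2.45, 2.57 and 6.58 TPM against 21.4, 15.3, 183 and 39.7 TPM, and Col3a1 43.4, 15.6, 16.8 and 30.2 TPM against 74.4, 44.4, 556 and 118 TPM. The part of other cells in the Nrp2 difference was not tested. Without H3 the log2 fold change was 0.88 (standard error 0.25, limma, unadjusted p = 0.00784, adjusted p = 0.557). Without H3 and H4 it was 0.69 (standard error 0.23, limma, unadjusted p = 0.0197, adjusted p = 0.35). In H1 and H2 the lymphatic markers were at 111% and 97.2% of their control mean, the venous markers at 136% and 134%, the fibroblast and pericyte markers at 145% and 99.7%, and the myeloid markers at 149% and 182%. Nrp1 had 301, 315, 347 and 428 TPM in the controls and 345, 305, 27.4 and 253 TPM in H1 to H4. The ratio of Nrp1 to Nrp2 was 15.1, 18.2, 31.3 and 28.4 in the controls and 11.97, 13.5, 0.324 and 6.58 in H1 to H4. This ratio was chosen after its values were seen and has no test.

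Epha2 had a log2 fold change of -0.64 with a standard error of 0.36 (limma, unadjusted p = 0.111, adjusted p = 0.79), and an exact permutation p of 0.0286 (0.567 adjusted). Without H3 it was -0.25 (standard error 0.13). The direction depends on the scale: relative to the mean of the 20 endothelial markers of the same library, Epha2 differed by 0.53 (exact p = 0.6), with H1 and H2 below every control and H3 and H4 above. Other large differences over all 8 libraries were -1.63 for Epha4, -1.44 for Sema6a and -1.30 for Sema3g, with standard errors of 0.85 to 0.90. On the higher side, Plxna3 had 0.84 and Efna5 0.84, with standard errors of 0.42 and 0.50. Without H3 these 5 stood at -0.72, -0.44, -0.33, 0.49 and 0.56, in that order, and without H3 and H4 at 0.12, -0.07, 0.31, 0.41 and -0.06. Plxna3 was also above every control in H1.

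**Figure D2:**
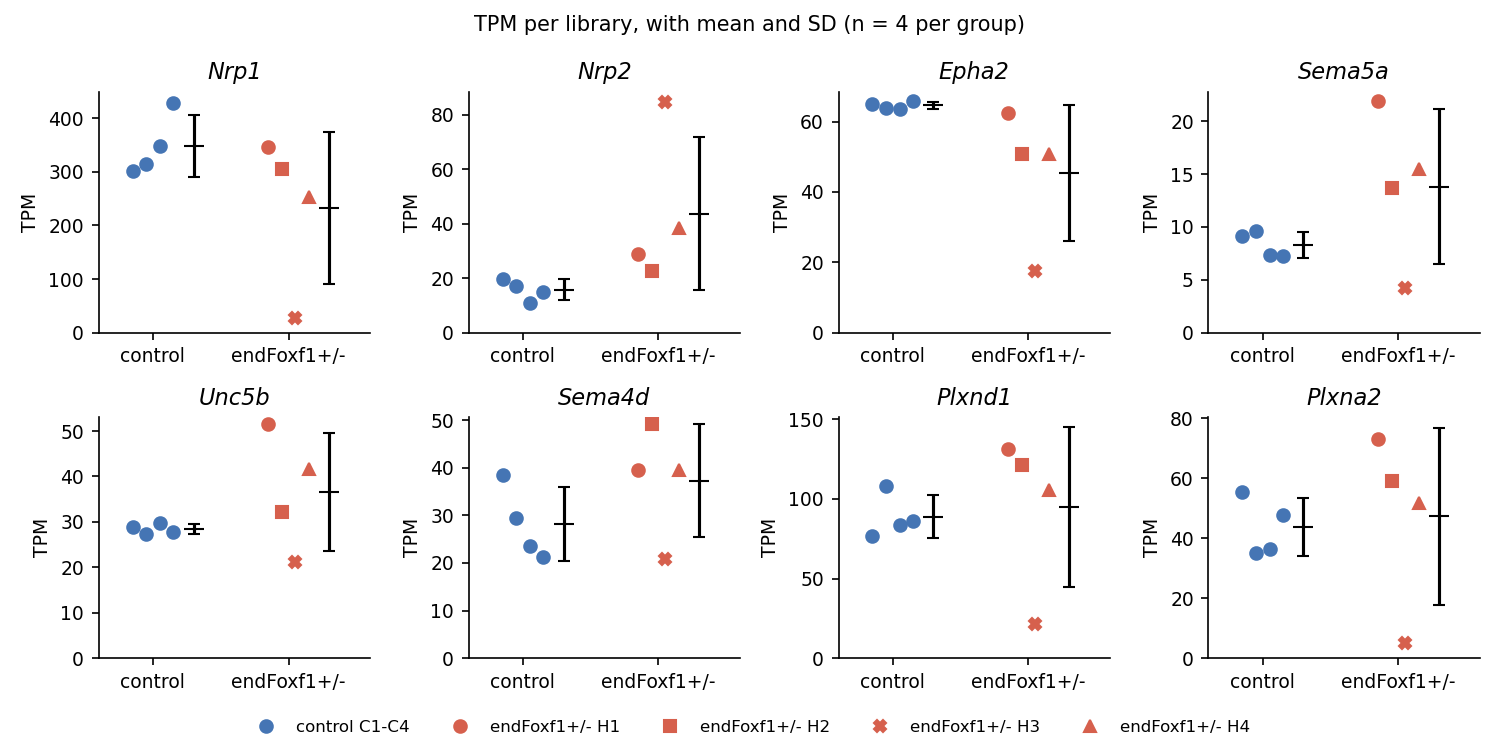
TPM in each library (vertical axes start at 0) for 8 guidance genes, with the group mean and SD at the right of each group (n = 4). Nrp2 is higher in all 4 endFoxf1+/- libraries than in any control and Epha2 lower, while Sema5a, Unc5b and Sema4d are higher in all but H3.

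Without H3, limma again called no guidance gene at an adjusted p of 0.05 and called 1 gene of all tested (0.00668%). At an unadjusted p under 0.05 it called 7 of 51 guidance genes (13.7%), all of them higher in endFoxf1+/- cells, where 7.18% of all tested genes were called, 4.83% higher and 2.35% lower. The 7 were the receptors Nrp2, Plxna2, Plxnd1 and Unc5b and the ligands Sema4d, Sema5a and Slit2. Sema5a, a membrane semaphorin that binds plexin-A and plexin-B family members, had 9.098, 9.62, 7.31 and 7.21 TPM in the controls and 21.9, 13.6, 4.24 and 15.5 TPM in H1 to H4. Without H3 its log2 fold change was 0.93 with a standard error of 0.22 (unadjusted p = 0.00257, adjusted p = 0.423). Sema4d, the ligand of Plxnb1, had 38.5, 29.3, 23.5 and 21.3 TPM against 39.5, 49.1, 20.8 and 39.5 TPM and a log2 fold change of 0.61. For Unc5b it was 0.51, for Plxnd1 0.43 and for Plxna2 0.49, with standard errors of 0.16 to 0.21. Slit2 had 1.01 with a standard error of 0.36, its groups overlapping through C2 and H2.

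The groups did not overlap without H3 for 4 guidance genes above, Nrp2, Sema4d, Sema5a and Unc5b (7.84%, against 6.5% of all tested genes), and for Epha2 below (1.96%, against 2.6%). Both ways together this was 5 of 51 (9.8%), against 9.1% of all tested genes, which is close. With 3 libraries against 4 there is no exact p below 0.0571 to be had. The median log2 fold change of the 51 was then 0.08, against 0.01 for all tested genes, and 32 of the 51 (62.7%) lay above 0, against 51.7%. Without H3, Plxna2 and Plxnd1 turned from -0.34 and -0.17 to the positive values above.

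Without H3 and H4, limma called no guidance gene at an adjusted p of 0.05, and 3 genes of all tested (0.02%). At an unadjusted p under 0.05 it called 11 of 51 (21.6%, against 12.1% of all tested genes). Of these, 9 were higher (17.6%, against 9.87%): Efnb2, Ephb1, Nrp2, Plxna2, Plxna4, Plxnd1, Sema4d, Sema5a and Unc5b. The 2 lower ones were Efna3 and Plxnb1 (3.92%, against 2.25%). Efna3, an ephrin-A whose gene sits between Efna1 and Efna4 on chromosome 3, had 1.21, 1.64, 3.65 and 1.74 TPM in the controls and 0.147, 0.0331, 0.406 and 2.76 TPM in H1 to H4, so that H4 lay inside the control range. It was named after its values were seen. Between the 4 controls and H1 and H2, 16 members did not overlap (31.4%, against 24.4% of all tested genes), 13 above (25.5%, against 20.2%) and 3 below (5.88%, against 4.19%). Only 2 libraries then stand for the endFoxf1+/- group. The median log2 fold change was 0.19, against 0.14, and 36 of the 51 (70.6%) lay above 0, against 70.7% of all.

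**Figure D3:**
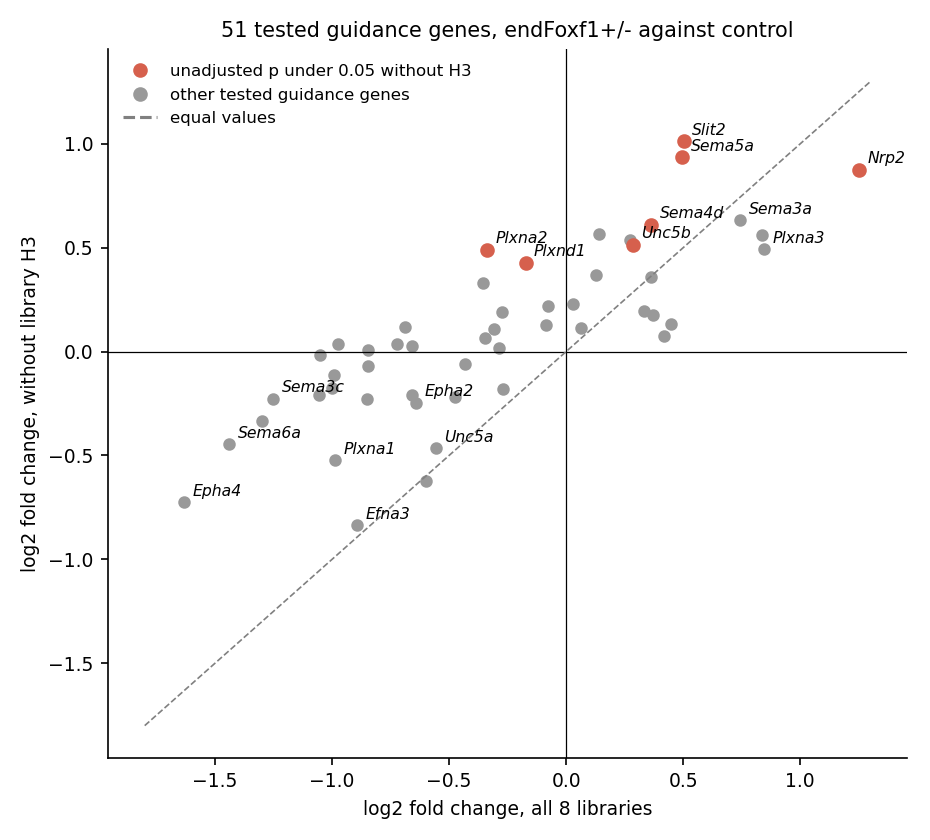
Log2 fold change of the 51 tested guidance genes, endFoxf1+/- against control, with all 8 libraries (horizontal) and without H3 (vertical), with the 7 genes of unadjusted p under 0.05 without H3 in red. Most points lie above the line of equal values, and Nrp2 lies at 1.25 and 0.88.

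The level of the endothelial markers differed between libraries. The members were therefore also set against the mean log2(TPM + 1) of the 20 endothelial markers in the same library. That mean was lower by 1.17 in endFoxf1+/- libraries with H3 and by 0.19 without it (exact permutation test with all 8, p = 0.343). Relative to the markers, 9 of 51 guidance genes (17.6%) were higher in each of H1 to H4 than in each control, where 8.99% of all tested genes were. None was lower in all 4, where 0.0535% of all tested genes were. The 9 were 4 plexin and neuropilin receptors (Nrp2, Plxna2, Plxna4 and Plxnd1), 2 semaphorins (Sema4d and Sema5a), the ephrin Efnb2, the receptor Epha10 and the netrin receptor Unc5c. Each had an exact two-sided p of 0.0286 and of 0.316 when adjusted over all tested genes, so none passed the adjusted threshold.

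The differences relative to the markers were 2.43 for Nrp2, 1.67 for Sema5a, 1.54 for Sema4d, 1.302 for Epha10, 1.097 for Unc5c, 1.002 for Plxnd1, 0.84 for Plxna2, 0.82 for Plxna4 and 0.33 for Efnb2, on the log2 scale. Any gene that did not share the low endothelial level of H3 gains by this measure, and in genes near 1 TPM, such as Epha10 and Unc5c, the added 1 TPM holds the log value up. Without H3 and H4 the differences were smaller, 0.59 for Nrp2, 0.89 for Sema5a, 0.57 for Sema4d, 0.42 for Plxnd1 and 0.51 for Plxna2. The count above every control was 9 of 51 without H3 (against 9.01% of all tested genes) and 9 without H3 and H4 (against 12.1%). It could not have been lower, since genes above every control in each of H1 to H4 remain so when H3 or H4 is left out, and it is therefore no check on the 9. The smallest possible exact p is 0.0571 without H3 and 0.133 without H3 and H4. On the lower side, no guidance gene was below every control without H3 (background 1.78%), and Efna3, Epha2 and Plxnb1 were without H3 and H4 (5.88%, against 6.7%). Set against the single marker Pecam1 (CD31, the protein used in the sort), Nrp2, Sema5a and Plxna4 alone of the 9 were higher in each of H1 to H4. The share of all tested genes on this scale was not computed, so this is no result about the guidance genes. Efnb2 gave 0.20 relative to Pecam1 with an exact permutation p of 0.286. Unc5b was at 1.46 relative to the markers, with 3 of 4 endFoxf1+/- libraries above all controls (exact p = 0.0571). Plxna4, Epha10 and Unc5c were named after their values were seen.

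**Figure D4:**
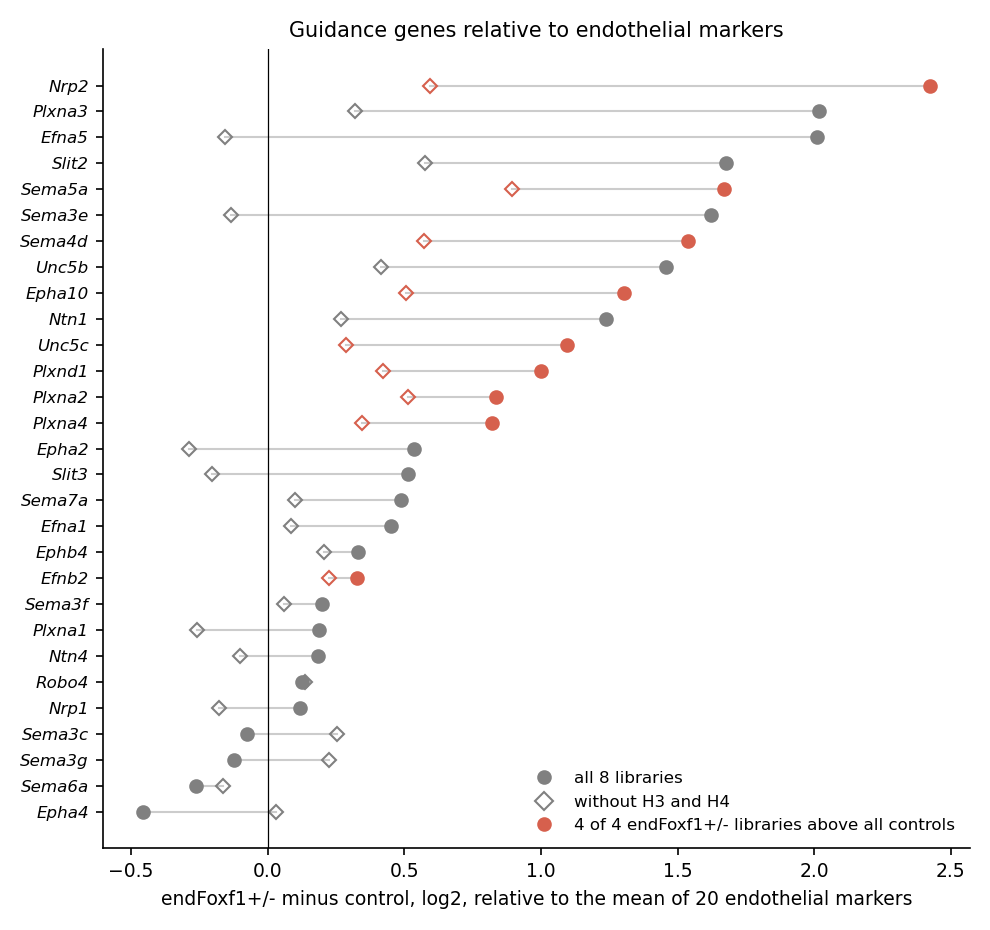
Difference between endFoxf1+/- and control libraries in log2(TPM + 1) after subtracting the mean of 20 endothelial markers, with all 8 libraries (filled) and without H3 and H4 (open), with genes higher in each of the 4 endFoxf1+/- libraries than in every control in red. Nrp2 goes from 2.43 to 0.59 and Sema5a from 1.67 to 0.89, while Epha2, Nrp1 and Plxna1 change sign.

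H3 and H4 separated the members from each other. In H3 each of the 20 endothelial markers was at 3.69 to 8.20% of its control mean. The 50 guidance genes with a control mean of at least 1 TPM ranged from 3.19 to 575%, with a median of 19.4%. Of these, 23 were under 15%, among them Epha4, Sema6a, Sema3g, Sema3c, Robo4, Sema3f, Nrp1, Efnb2 and Ephb4. Another 19 lay between 15 and 100%, among them Plxnd1 (24.3%), Epha2 (27.1%), Sema5a (51.02%), Sema4d (74.0%), Unc5b (74.6%) and Ntn1 (93.8%). The remaining 8 were above their control mean in H3: Plxna3 (575%), Nrp2 (535%), Sema3e (390%), Sema4b (293%), Sema3a (228%), Plxnb2 (191%), Sema4a (171%) and Efna4 (149%). The level that these genes have in myeloid or stromal cells of the tumor was not measured here.

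In H4 the same 50 genes ranged from 14.3 to 691%, with a median of 86.1%, and the 20 endothelial markers from 19.0 to 120% with a median of 65.6%. In this library 1 gene, Gm20594, held 21.8% of all TPM, against 5.11 to 11.3% in the controls. TPM values share a fixed total, so this leaves less for every other gene in H4. Its part in the values was not tested. Epha4 (17.0%) and Sema3g (30.5%) were low, and Epha7 (691%), Slit2 (417%) and Sema3a (306%) high. Sema3a, the repellent semaphorin of neuropilin-1, had 5.36, 6, 3.898 and 6.46 TPM in the controls and 6.71, 6.05, 12.4 and 16.6 TPM in H1 to H4, where H3 and H4 lay far above the control range and H1 just above it. The values of Epha7, 1.39, 1.29, 2.06 and 1.53 TPM against 1.59, 0.755, 0.167 and 10.8 TPM, put H4 above every control and H2 and H3 below every control. In H1 and H2, Efna3 was the lowest of these genes against its control mean (7.15% and 1.61%). Sema5a was at 263% and 164% and Slit2 at 227% and 140%.

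**Figure D5:**
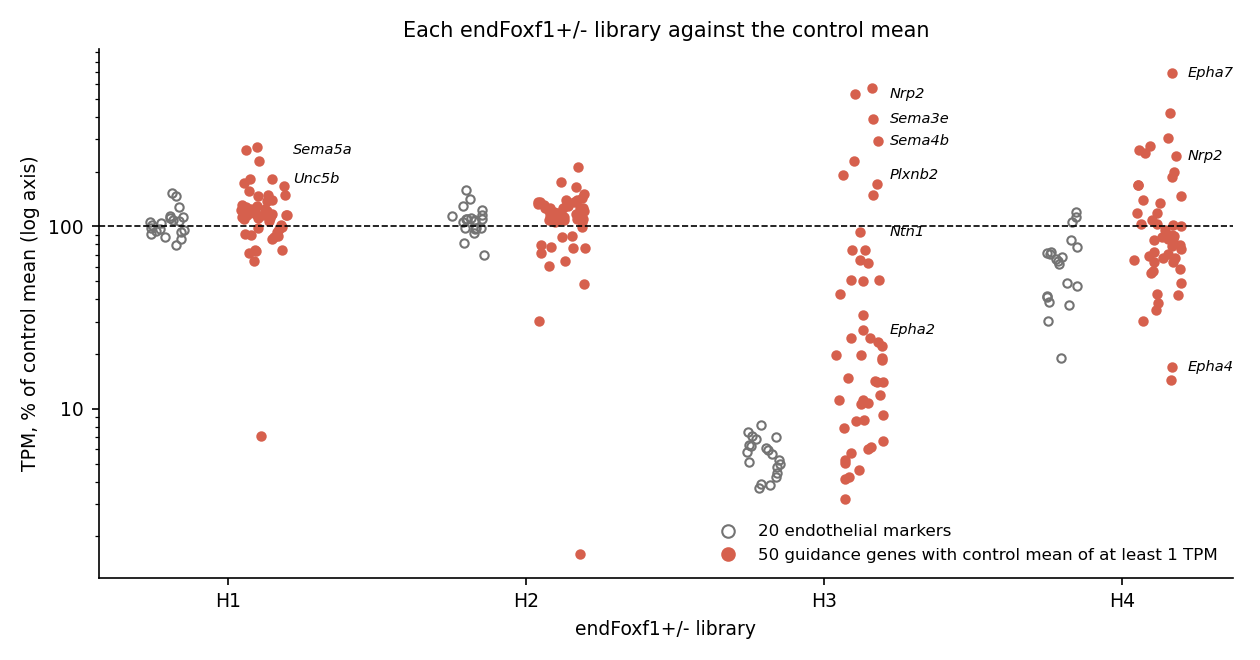
TPM as a percentage of the control mean (log axis) in each endFoxf1+/- library, for the 20 endothelial markers (open) and the 50 guidance genes with a control mean of at least 1 TPM (red). In H3 the markers lie at 3.69 to 8.20% and the guidance genes spread from 3.19 to 575%, and in H1 and H2 most of both lie around 100%, with Efna3 far below.

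The genes that act with these ligands and receptors were taken from 4 lists of 67 genes in all, of which 60 were tested: 20 of 21 for semaphorin and plexin signaling, 14 of 15 for ephrin and Eph, 14 of 15 for Slit and Robo and 12 of 16 for netrins. None had an adjusted p under 0.05. At an unadjusted p under 0.05 over all 8 libraries, limma called 6 of the 60 (where 5.59% of all tested genes were called), 5 higher and 1 lower: 3 for semaphorin signaling, 0 for ephrins, 1 for Slit and Robo and 2 for netrins. Crmp1, a collapsin response mediator that acts below semaphorin receptors, had 1.96, 0.755, 0.889 and 1.26 TPM in the controls and 4.02, 2.79, 5.38 and 8.76 TPM in H1 to H4, with a log2 fold change of 1.44 (standard error 0.35). Its relative Dpysl5 had the opposite sign, with 20.8, 21.6, 27.8 and 32.2 TPM against 10.6, 16.9, 1.88 and 14.3 TPM and a log2 fold change of -1.42 (standard error 0.53). For both the groups did not overlap, which held for 5 of the 60 over all 8 libraries (against 5.04% of all tested genes).

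Flrt2, a membrane ligand of Unc5 receptors, had 2.68, 1.13, 1.36 and 2.57 TPM against 4.92, 3.43, 41.6 and 7.97 TPM, with H3 far above the rest. Srgap3, a GTPase-activating protein that acts below Robo, had 1.26, 1.39, 1.77 and 1.55 TPM against 3.09, 2.65, 12.5 and 2.98 TPM. Neither overlapped between groups. The other was Trio, an exchange factor that acts below netrin receptors, with 19.5, 16.6, 15.9 and 16.9 TPM against 22, 20.7, 25.6 and 25.2 TPM and a log2 fold change of 0.42 (standard error 0.20, limma, unadjusted p = 0.0657), and H3 did not stand apart in it. The remaining 2 called at an unadjusted p under 0.05 were Dpysl3 (0.65), another collapsin response mediator, and Neo1 (1.33), a netrin receptor related to Dcc. Without H3 limma also called 6 of the 60 (background 7.18%): Crmp1 (1.40), Flrt2 (1.12), Srgap3 (0.65), Adam17 (0.50) and Trio (0.38) higher and Dpysl5 (-0.83) lower. All had adjusted p of at least 0.507. Without H3 and H4 it called 13 (21.7%, against 12.1%), 11 higher and 2 lower.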

How the data were processed

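RNA-seq of CD45-CD31+ cells sorted from LLC tumors of 4 control and 4 endFoxf1+/- mice was used. For each library the authors deposited 1 table of TPM per gene symbol, which they had computed from reads of Nextera XT libraries. The submitters' processing notes name TopHat, Cufflinks, Subread, DESeq2 and the builds GRCm38 and mm10, without versions or roles. Read depth cannot be had from TPM, so no counting error is given. No sources used here say which tool gave the TPM.

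From the tables, log2(TPM + 1) was tested with limma 3.58.1 (R 4.3.3; empirical Bayes with trend) on genes at 1 TPM or more in at least 4 libraries, with Benjamini-Hochberg adjustment over all 14964 of them. All 8 libraries entered the fit, with no covariate. Exact two-sided permutation tests over libraries (70 assignments for 4 against 4) were made in Python 3.11.15. Of these steps, only the main limma fit was tested on simulated data, with values drawn independently for each gene and library. The series text gives 4 mice a group, 1 library each. No library repeated another's values. Start sites and sequences come from RefSeq (GRCm38.p6), gene positions from GENCODE vM21, in which all 67 symbols were found.

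Genes with values for every library were chosen by rule: the highest member of each family, genes with textbook roles in vessels, members past an unadjusted p of 0.05 or not overlapping with all libraries or without H3, and the 3 largest differences each way. Others that are named were chosen after their values were seen. The members, the marker and partner lists and the rule were chosen with earlier results of these data known. Alternatives were other pseudocounts, filters, scalings and weights, and leaving out libraries.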

Additional observations from a re-analysis of the deposited data

Results flagged for a closer look

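For 8 guidance genes the gap between the lowest endFoxf1+/- library and the next, on the log2(TPM + 1) scale, took more of the group's range than a Dixon test at its 95% critical value for 4 samples allows. The library was H3 in all 8. Nrp1, the VEGF and semaphorin co-receptor, was at 27.4 TPM in H3 with a gap of 0.875 of the range. The semaphorins Sema3f and Sema7a were at 13.6 and 16.5 TPM (0.915 and 0.923). The plexins Plxna2 and Plxnd1 were at 5.201 and 21.6 TPM (0.862 and 0.878). The receptor Epha2 was at 17.5 TPM and its ligand Efna1 at 8.24 TPM (0.836 and 0.859), and the netrin Ntn4 at 2.95 TPM (0.888). In all, 52 groups were looked at, and chance alone marks about 1 in 20. The share of all tested genes flagged in this way was not computed, so the count is no result about the guidance genes. In the same library the endothelial markers were at 5.77% of their control mean and the myeloid markers at 1146%, and the part of this in the 8 values was not tested.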

How the results depend on the processing

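No paired analysis was possible because the sample labels give each mouse a number of its own, with none shared between the groups, and the numbers 1 to 4 used here follow only the order of listing and pair no mice. The counts and the log2 fold changes were recomputed under up to 18 settings (17 for Sema3e, Plxna3, Efna5, Slit2 and Slit3, which are not tested at a minimum of 5 TPM): leaving out each library, leaving out H3 and H4 together, pseudocounts of 0.1 and 5, no filter, a minimum of 5 TPM, quantile normalization, median-ratio scaling, limma without the mean-variance trend, with array weights, and with the endothelial marker level as a covariate. The values relative to the endothelial markers and the ratio of Efnb2 to Ephb4 had 10 settings each. The cause of the changes below was not tested, beyond what leaving out a library shows by itself.

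The count of guidance genes with an adjusted p under 0.05 in limma stayed at 0 under every setting but array weights, which gave 2 (Sema5a, higher, and Efna3, lower) of 51, where 0.989% of all tested genes were called. Those weights were 0.0643 for H3, 0.178 for H4 and 1.17 to 3.85 for the others. The count at an unadjusted p under 0.05, 1 with all libraries, was 2 without the trend, 3 without the filter, 4 with quantile normalization, 5 with median-ratio scaling, 8 with the covariate, 11 without H3 and H4 and 13 with array weights, and 1 to 7 when 1 library was left out (2 without C1, 5 without H1, 5 without H2, 7 without H3, 3 without H4). Of all tested genes, 5.59% were called with all libraries, 5.7% without the trend, 4.63% without the filter, 6.86% with quantile normalization, 6.74% with median-ratio scaling, 7.1% with the covariate, 12.1% without H3 and H4, 19.2% with array weights and 2.85 to 10.8% without 1 library. The count of guidance genes whose groups do not overlap, 2, was 4 without the filter, 16 without H3 and H4 and 2 to 9 when 1 library was left out (9 without H2, 5 without H3, 4 without H4), against 5.04% of all tested genes with all libraries, 3.8% without the filter, 24.4% without H3 and H4 and 6.32 to 10.2% without 1 library. Of the 60 partner genes, 6 had an unadjusted p under 0.05 with all libraries, against 5.59% of all tested genes. The count was 2 at a minimum of 5 TPM (against 4.76%), where fewer partner genes were tested. It was 13 without H3 and H4 (against 12.1%) and 18 with array weights (against 19.2%). Leaving out 1 library gave 3 to 11 (3 without C1, C2 or C4, 11 without H2), against 2.85 to 10.8%. The log2 ratio of Efnb2 to Ephb4 differed by 0.032 with a pseudocount of 0.1 and by -0.0748 to 0.0806 when 1 library was left out.

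Of the 463 log2 fold changes so recomputed for the 26 tested genes named by rule, 417 kept their direction and their side of the threshold. Only 1 of the 463 had an adjusted p under 0.05 in limma, and no gene had one with all libraries. Keeping the side of the threshold was thus nearly fixed in advance. The direction never changed for 11 of the 26, Nrp2 among them (0.69 to 1.495, adjusted p 0.0795 to 0.975). For Nrp2 and Epha2, whose groups do not overlap, leaving out libraries could not have changed the direction. Those settings are therefore no check on these genes. Without H3 and H4 the log2 fold changes that changed sign were Sema3c 0.35, Sema3e -0.0413, Sema3f 0.15, Sema3g 0.31, Sema7a 0.19, Plxna2 0.60, Plxnd1 0.51, Epha4 0.12, Ephb4 0.30, Efna1 0.17, Efna5 -0.064, Efnb2 0.32 and Robo4 0.23. With array weights they were Sema3c 0.21, Sema3f 0.10, Sema3g 0.24, Sema7a 0.20, Plxna2 0.67, Plxnd1 0.44, Ephb4 0.21, Efna1 0.15, Efna5 -0.10, Efnb2 0.28 and Robo4 0.16. With the covariate they were Sema3c 0.0217, Sema3f 0.21, Sema7a 0.26, Plxna2 0.64, Plxnd1 0.53, Ephb4 0.11, Efna1 0.18, Efnb2 0.19, Robo4 0.18 and Ntn4 0.0345. Plxnd1 was 0.018 with median-ratio scaling and 0.020 with quantile normalization. The genes that changed sign when 1 library was left out ranged as follows: Sema3f -1.36 to 0.0376, Sema7a -0.99 to 0.12, Plxna2 -0.70 to 0.49, Plxnd1 -0.42 to 0.43, Efna1 -1.04 to 0.0375, Efnb2 -1.26 to 0.00998 and Ntn1 -0.0396 to 0.21. Except for Ntn1 (C3, H1 or H2), that library was H3.

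Relative to the endothelial markers, values that changed sign without H3 and H4, a setting added after the data were seen, were Sema3c 0.26, Sema3e -0.13, Sema3g 0.22, Plxna1 -0.26, Nrp1 -0.18, Epha2 -0.29, Epha4 0.0301, Efna5 -0.16, Slit3 -0.20 and Ntn4 -0.10. Relative to Pecam1 they were Nrp1 -0.012 and Robo4 -0.00557. Leaving out 1 library gave Sema3c -0.22 to 0.0989, Sema3g -0.25 to 0.12, Plxna1 -0.33 to 0.41, Nrp1 -0.0118 to 0.25, Epha2 -0.0507 to 0.86 and Slit3 -0.0145 to 0.82, the library being C1 or H4 for Sema3c and Sema3g and H3 for the others. With any library left out the smallest exact p is 0.0571, so that no call at 0.05 is possible there.

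Read depth cannot be recovered from TPM, so values below about 1 TPM have an unknown counting error, and 4 libraries a group, with H3 and H4 apart, leave wide errors.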
